A study of Mus musculus with 9 samples.

Results

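Dhrs9, which encodes a retinol dehydrogenase, and 8 further genes of retinoid metabolism were followed through a mouse model of colitis: the retinol dehydrogenase gene Rdh10, the retinal dehydrogenase genes Aldh1a1, Aldh1a2 and Aldh1a3, the retinol carrier gene Rbp2, and the retinoic acid receptor genes Rara, Rarb and Rarg. These 9 genes were taken by symbol from a table of 35315 genes. Dhrs9 was chosen by its measured fold changes in these libraries, so its own values are given as a description with no test. The other 8 were chosen for their function, but with earlier results of these data known. Their p-values are therefore not those of genes picked blind.

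RNA was measured in the colon of C57BL/6J wild-type mice, 8 weeks old, in 3 groups of 3 libraries. Mice of the GsMTx4 group had 2.5% dextran sulfate sodium (DSS) in their drinking water, which damages the lining of the colon, for 7 days, and were injected intravenously with GsMTx4 at 10 mg/kg on days 2, 4 and 6. GsMTx4 is a spider-venom peptide that blocks mechanically gated cation channels such as Piezo1. DSS mice had the same drinking water and received solvent on the same days. Control mice had normal drinking water and no listed injection, so what DSS and what the injections did cannot be told apart in comparisons with Control. The labels do not tell whether each library is a different mouse, so a p-value reflects only how much these samples varied, which may be technical.

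Retinol enters cells from the diet or from plasma and is oxidised first to retinal, by alcohol and short-chain dehydrogenases, and then to retinoic acid, by the Aldh1a enzymes. Retinoic acid binds nuclear receptors that pair with RXR and switch on target genes, and Cyp26 enzymes break it down. In the gut, epithelial cells, stromal cells and dendritic cells can make retinoic acid, which is known for directing lymphocytes to the intestine and for shaping epithelial differentiation.

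Levels are FPKM, fragment numbers scaled by transcript length and by library size, and so can be set beside each other between genes. Fold changes are log2 fold changes of FPKM + 1 with their standard error (SE). A gene was called at an adjusted p under 0.05 from limma, adjusted by the Benjamini-Hochberg method over the 14360 genes with at least 1 FPKM in at least 3 libraries. FPKM sums were between 349125 and 440935 per library, with 12830 to 14036 genes at 1 FPKM or more. How many reads lie behind each library is unknown. GsMTx4 3 stood apart, at -44.7 on the second principal component (16.5% of the variance), against -26.8 to 21.5 for the other libraries, and results that rest on it are also given without it. General epithelial markers, 8 of 8 in the table, summed to 4315 to 5423 FPKM in GsMTx4, 3995 to 5470 FPKM in DSS and 4272 to 5532 FPKM in Control libraries. Krt8 and Krt19, with means of 2257 and 1204 FPKM over the 9 libraries, weigh most in this sum. Of the 8, only Cdx1 was called, lower in DSS than in Control (adjusted p = 0.0130, limma) and higher in GsMTx4 than in DSS (adjusted p = 0.0209). Its means were 156 FPKM in GsMTx4, 93.0 FPKM in DSS and 161 FPKM in Control. Of all tested genes, 10.7% and 6.66% were called in these directions.

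Of the 9 genes, Dhrs9, Aldh1a3 and Rdh10 had higher levels in all 3 DSS libraries than in any Control library, and lower levels in all 3 GsMTx4 libraries than in any DSS library. Rbp2 had the opposite order in both comparisons, and the other 5 genes overlapped in both. Higher levels without overlap in DSS than in Control were found for 13.5% of all tested genes and lower ones for 33.6%. Between GsMTx4 and DSS, 17.5% of tested genes were higher and 12.8% lower without overlap. These 2 comparisons share the DSS libraries, so opposite directions in them are no independent support for each other. Dhrs9 was chosen by its fold changes in these libraries, so its order here is a description only. Aldh1a2 and Rarb did not pass the expression filter, while the shares cover tested genes only.

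Dhrs9 (ENSMUSG00000027068, GRCm38 chromosome 2, 69380445 to 69404533, plus strand) encodes a short-chain dehydrogenase that oxidises retinol to retinal, as shown for the human enzyme, and also acts on steroids. Its level was 2.81, 4.43 and 0.703 FPKM in the GsMTx4 libraries, 19.9, 31.4 and 45.1 FPKM in the DSS libraries, and 2.09, 2.50 and 2.23 FPKM in the Control libraries. The DSS libraries were all far above the other 6, and the GsMTx4 libraries lay on both sides of the Control libraries, with GsMTx4 3 the lowest of the 9.

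The means of Dhrs9 were 2.65 ± 1.87 FPKM in GsMTx4, 32.1 ± 12.6 FPKM in DSS and 2.28 ± 0.210 FPKM in Control colon (SD, n = 3 each). The DSS mean was 14.1 times the Control mean, a log2 fold change of 3.27 (SE 0.41). The log2 fold change was -3.26 (SE 0.41) in GsMTx4 against DSS, and the GsMTx4 mean was 0.0825 times the DSS mean. Without GsMTx4 3 it was -2.79. In GsMTx4 against Control it was 0.00 (SE 0.41), with -0.36 without GsMTx4 2 and 0.48 without GsMTx4 3, so its direction there turned on single libraries.

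**Figure D1:**
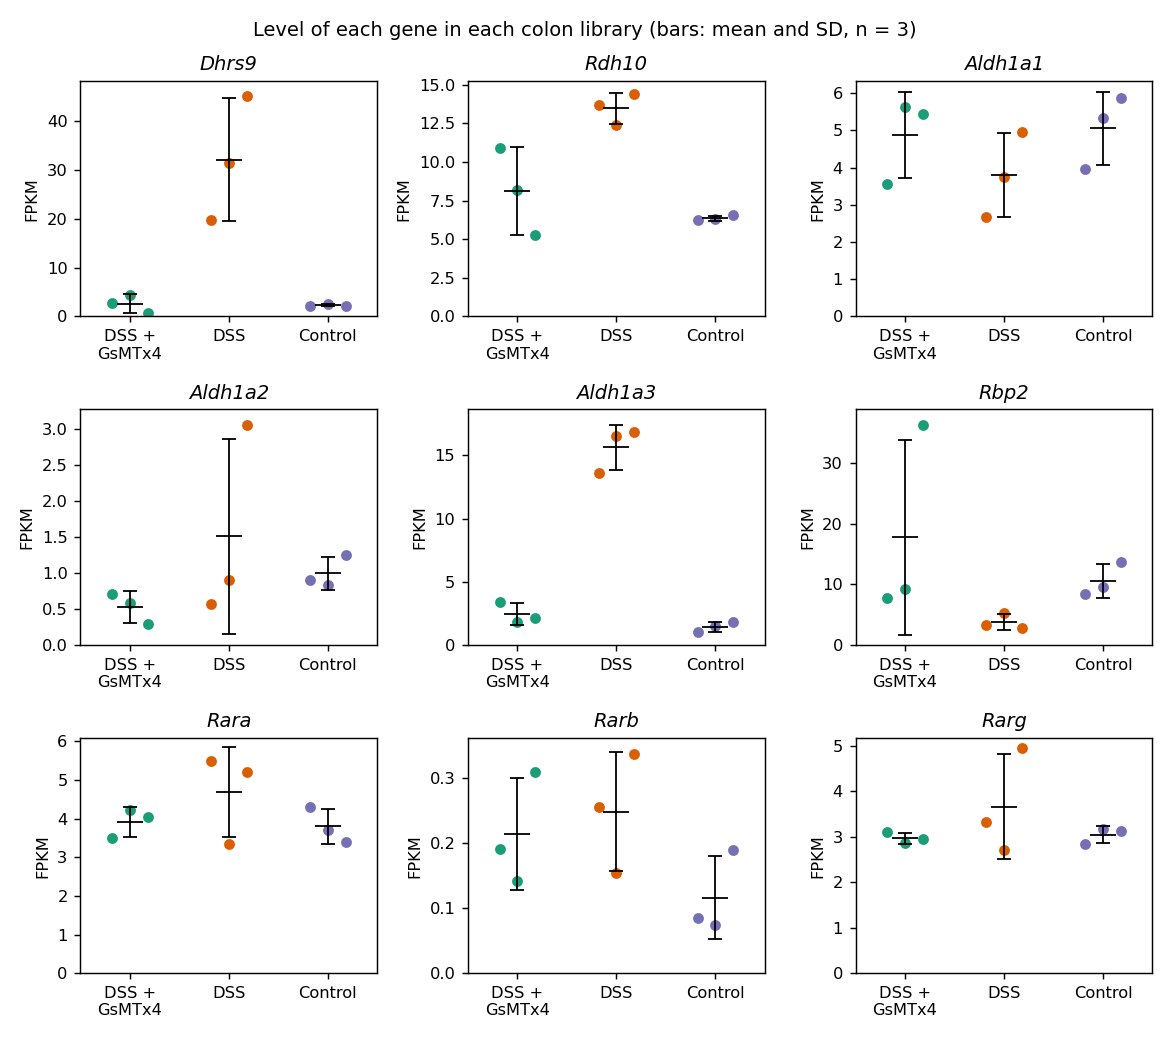
Level of each of the 9 genes in FPKM (vertical axes, from 0, on a scale of their own) in the DSS + GsMTx4, DSS and Control libraries. Points are single libraries, and bars give the mean and SD of 3. Dhrs9, Rdh10 and Aldh1a3 are highest in the 3 DSS libraries, and Rbp2 is lowest there.

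The sequence before the RefSeq start of Dhrs9 is shown because no other of the 9 genes differed as widely between DSS and Control means. It covers the 250 bases up to the start, at chr2:69380212-69380461 on the plus strand of GRCm38.p6. Capitals mark matches to AGGTCA, a motif bound by many nuclear receptors, and to TGANTCA, the core bound by AP-1 factors.
Dhrs9: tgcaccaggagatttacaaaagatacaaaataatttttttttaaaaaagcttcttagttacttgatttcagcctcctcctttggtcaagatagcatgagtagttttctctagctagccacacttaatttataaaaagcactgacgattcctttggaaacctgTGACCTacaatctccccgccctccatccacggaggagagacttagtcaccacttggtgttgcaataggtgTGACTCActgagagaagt
The TGANTCA match lies at -18 to -12, counted back from the start. The AGGTCA match, on the opposite strand, lies at -88 to -83. Both strands of 32544 distinct promoter windows of 300 bases (250 before and 50 after each start, RefSeq, GRCm38.p6) were searched. Of these, 7.79% hold TGANTCA and 16.2% hold AGGTCA, and a match describes the letters only.

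Rdh10 (ENSMUSG00000025921, chromosome 1, 16105774 to 16133734, plus strand) encodes a membrane-bound retinol dehydrogenase that supplies retinal to the mouse embryo. It was at 10.9, 8.21 and 5.28 FPKM in the GsMTx4 libraries, 13.7, 12.4 and 14.4 FPKM in the DSS libraries, and 6.24, 6.31 and 6.55 FPKM in the Control libraries. The DSS libraries were close to each other and above all others, while the GsMTx4 libraries were spread over both sides of the Control values. Rdh10 rose in DSS against Control by a log2 fold change of 0.97 (SE 0.21, adjusted p = 0.0150, limma). The call was lost when any 1 Control library was left out (adjusted p = 0.0502 to 0.0577) and under rescaling to a common sum (adjusted p = 0.0516). The log2 fold change in GsMTx4 against DSS was -0.71 (SE 0.21, adjusted p = 0.0559), which did not pass. It passed without GsMTx4 1 (adjusted p = 0.0176), under median-of-ratios scaling (0.0316) and under quantile normalization (0.0332). GsMTx4 against Control gave 0.26 (SE 0.21, adjusted p = 0.711).

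Aldh1a3 (ENSMUSG00000015134, chromosome 7, 66390890 to 66427517, minus strand), which encodes 1 of the 3 enzymes that turn retinal into retinoic acid, was at 3.43, 1.79 and 2.12 FPKM in the GsMTx4 libraries. It was at 13.6, 16.5 and 16.8 FPKM in the DSS libraries and at 1.01, 1.48 and 1.83 FPKM in the Control libraries. All DSS libraries were well above the other 6, and the GsMTx4 and Control libraries overlapped only through GsMTx4 2. Aldh1a3 rose in DSS against Control by a log2 fold change of 2.78 (SE 0.20, adjusted p = 0.000471, limma) and fell by 2.29 in GsMTx4 against DSS (SE 0.20, adjusted p = 0.000894). Both calls were kept under every alternative run, the 9 fits without 1 library included. In GsMTx4 against Control the log2 fold change was 0.48 (SE 0.20, adjusted p = 0.474).

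With Dhrs9 left aside, 2 of the 6 tested genes rose in DSS against Control, Aldh1a3 and Rdh10, and none fell. Of all tested genes, 6.41% were called higher and 10.7% lower. In GsMTx4 against DSS, Aldh1a3 was the 1 of 6 that fell and none rose, against 5.62% of tested genes called lower and 6.66% called higher. None of the 6 was called in GsMTx4 against Control by limma, with 1 at an unadjusted p under 0.05, where 0.188% of tested genes were higher and 0.0487% lower. With 6 genes these counts are small, and the values of single genes carry more than the shares. The genes were also chosen with earlier results of these data known, so the shares are a description.

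**Figure D2:**
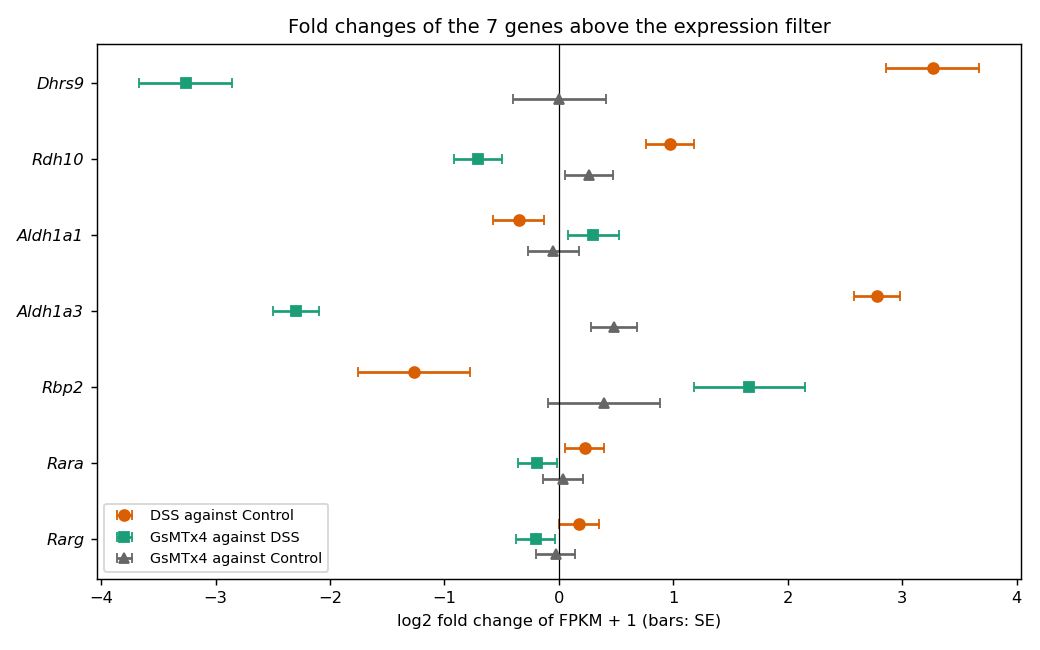
Log2 fold change of FPKM + 1 (horizontal axis) of the 7 genes that passed the expression filter, for each of the 3 comparisons in the legend, with bars for the SE. Dhrs9 and Aldh1a3 lie farthest from 0, at 3.27 and 2.78 in DSS against Control and at -3.26 and -2.29 in GsMTx4 against DSS.

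Aldh1a1 (ENSMUSG00000053279, chromosome 19, 20492715 to 20643465, plus strand) encodes a second retinal dehydrogenase, which is also a general aldehyde dehydrogenase of epithelia. It was at 3.55, 5.64 and 5.45 FPKM in GsMTx4, 2.68, 3.75 and 4.95 FPKM in DSS, and 3.98, 5.33 and 5.86 FPKM in Control libraries. The 3 groups overlapped, and no comparison passed: the log2 fold change was -0.35 for DSS over Control, 0.30 for GsMTx4 over DSS and -0.05 for GsMTx4 over Control (limma, adjusted p = 0.286, 0.399 and 0.960). Reads of its close copy Aldh1a7 may have been shared with it.

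Aldh1a2 (ENSMUSG00000013584, chromosome 9, 71215789 to 71296243, plus strand), known as the retinoic acid-making enzyme of mesenchyme, mesothelium and gut dendritic cells, was too low to be tested. It was at 0.711, 0.586 and 0.284 FPKM in GsMTx4, 0.570, 0.899 and 3.06 FPKM in DSS, and 0.895, 0.828 and 1.25 FPKM in Control libraries. DSS 3 alone was high. The GsMTx4 libraries were all below the Control libraries, which no other of the 9 genes showed, and among tested genes 14.6% were lower without overlap in that comparison. DSS 3 also had the highest summed fibroblast markers of the 9 libraries, at 266 FPKM, against 101 to 125 FPKM in GsMTx4, 115 and 184 FPKM in DSS 1 and DSS 2, and 114 to 131 FPKM in Control. Summed mesothelial markers were 4.17 FPKM in DSS 3, with 1.25 to 1.49 FPKM in GsMTx4, 2.44 and 2.27 FPKM in DSS 1 and DSS 2 and 1.05 to 2.31 FPKM in Control. Dendritic cell markers summed to 8.87 to 16.5 FPKM in GsMTx4, 20.7 to 34.9 FPKM in DSS and 14.1 to 19.8 FPKM in Control, and what these markers contribute to Aldh1a2 was not tested.

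Summed over the 3 Aldh1a genes, the level was 7.85 ± 0.168 FPKM in GsMTx4, 20.9 ± 4.01 FPKM in DSS and 7.49 ± 1.54 FPKM in Control (SD, n = 3 each). Aldh1a3 made up 44.6%, 22.4% and 27.0% of this sum in the GsMTx4 libraries, 80.7%, 78.1% and 67.7% in the DSS libraries, and 17.2%, 19.4% and 20.5% in the Control libraries. The DSS libraries did not overlap the others. Aldh1a1 was the larger share in GsMTx4 and Control, at 62.0 ± 13.7% and 67.6 ± 2.12%, and was 17.9 ± 2.00% of the sum in DSS.

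**Figure D3:**
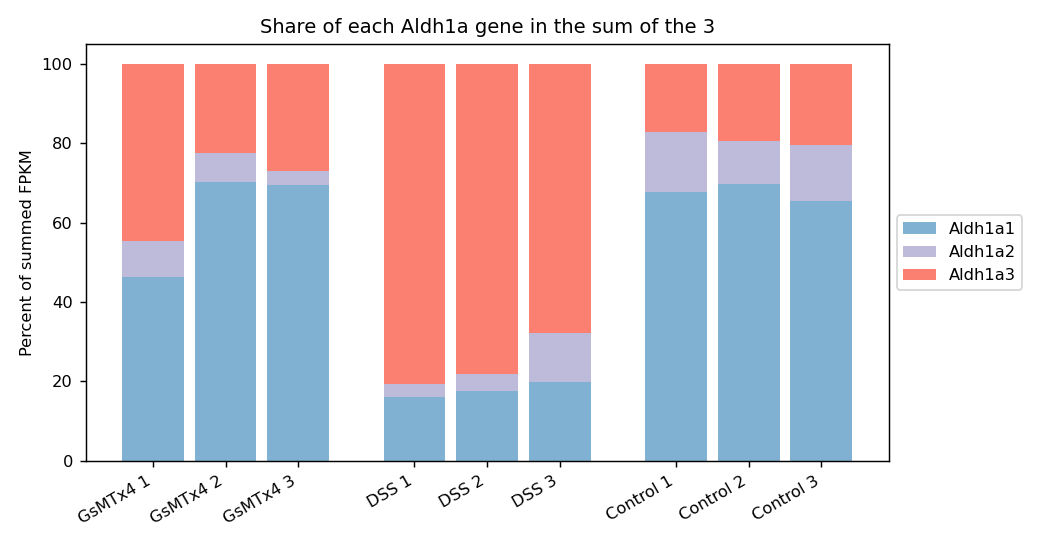
Percent of the summed FPKM of Aldh1a1, Aldh1a2 and Aldh1a3 (vertical axis) held by each gene in each of the 9 libraries. Aldh1a3 holds 67.7% to 80.7% in the DSS libraries and 17.2% to 44.6% in the others.

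The order of the 9 genes by level differed between DSS and the other groups. In DSS, Dhrs9 came first, at 32.1 FPKM, followed by Aldh1a3 at 15.6 and Rdh10 at 13.5 FPKM. Dhrs9 did not overlap Aldh1a3, Aldh1a3 overlapped Rdh10, and Rdh10 was clear of Rara, next at 4.68 FPKM. In GsMTx4 and in Control, Rbp2 came first, followed by Rdh10, Aldh1a1, Rara, Rarg, Dhrs9, Aldh1a3, Aldh1a2 and Rarb. In Control, only Aldh1a1 with Rara and Aldh1a3 with Aldh1a2 overlapped as neighbours, while in GsMTx4 only Rara with Rarg and Aldh1a3 with Aldh1a2 were apart. The GsMTx4 order rested in part on GsMTx4 3. Without that library Rdh10 came first at 9.58 FPKM, ahead of Rbp2 at 8.46 FPKM, and Dhrs9 at 3.62 FPKM stood above Rarg at 2.98 FPKM.

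Rbp2 (ENSMUSG00000032454, chromosome 9, 98486115 to 98509781, plus strand) encodes the cellular retinol-binding protein of absorptive enterocytes, known mainly from the small intestine. It was at 7.77, 9.16 and 36.3 FPKM in the GsMTx4 libraries, 3.28, 5.34 and 2.84 FPKM in the DSS libraries, and 8.43, 9.56 and 13.7 FPKM in the Control libraries. All DSS libraries were below the other 6, and GsMTx4 3 was far above every other library. The log2 fold change was -1.27 (SE 0.49, adjusted p = 0.101, limma) in DSS against Control and 1.67 (SE 0.49, adjusted p = 0.0561) in GsMTx4 against DSS, so neither passed. Without GsMTx4 3 both passed, at -1.27 (adjusted p = 0.00886) and 1.0 (adjusted p = 0.0484). DSS against Control also passed in a fit of those 2 groups alone (adjusted p = 0.0167), and GsMTx4 against DSS also passed without GsMTx4 1 (0.0351) and after rescaling to a common sum (0.0404). GsMTx4 against Control gave 0.39 (SE 0.49, adjusted p = 0.819).

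The other small-intestinal enterocyte markers, 7 besides Rbp2, summed to 29.2, 43.9 and 140 FPKM in GsMTx4, 28.5, 81.1 and 50.9 FPKM in DSS and 101, 70.4 and 54.7 FPKM in Control libraries. GsMTx4 3 was the highest here too, and 126 FPKM of its sum was Fabp6, the ileal bile acid-binding protein gene. With Rbp2 included, 3 of the 8 markers were tested and none was called by limma, with 2 in DSS against Control, 1 in GsMTx4 against DSS and 1 in GsMTx4 against Control at an unadjusted p under 0.05. Lct, Sis and Gata4 were at 0.0440 FPKM or less in every library, and Apoa4 at 0.762 FPKM or less. The labels do not say which segment of the colon was taken, so whether the 36.3 FPKM of Rbp2 in GsMTx4 3 reflects the segment sampled cannot be told. The part of these markers in the Rbp2 values was not tested.

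The receptor genes differed little. Rara (ENSMUSG00000037992, chromosome 11, 98927818 to 98974942, plus strand), the broadly expressed retinoic acid receptor, was at 3.49, 4.23 and 4.05 FPKM in GsMTx4, 5.49, 3.35 and 5.21 FPKM in DSS, and 4.30, 3.71 and 3.40 FPKM in Control libraries. Rarg (ENSMUSG00000001288, chromosome 15, 102234938 to 102257517, minus strand), known from epithelia, was at 3.10, 2.86 and 2.94 FPKM in GsMTx4, 3.32, 2.71 and 4.95 FPKM in DSS, and 2.84, 3.17 and 3.14 FPKM in Control libraries. Groups overlapped for both genes in each comparison. The log2 fold changes in DSS against Control were 0.22 (SE 0.17, adjusted p = 0.372, limma) for Rara and 0.18 (SE 0.17, adjusted p = 0.485) for Rarg. In GsMTx4 against DSS they were -0.19 (SE 0.17, adjusted p = 0.498) for Rara and -0.20 (SE 0.17, adjusted p = 0.459) for Rarg, and neither passed in GsMTx4 against Control (adjusted p = 0.962 and 0.971).

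Rarb (ENSMUSG00000017491, chromosome 14, 16430839 to 16819156, minus strand), itself a known target of retinoic acid, was too low to be tested. It was at 0.192, 0.142 and 0.309 FPKM in GsMTx4, 0.255, 0.154 and 0.337 FPKM in DSS, and 0.0848, 0.0744 and 0.191 FPKM in Control libraries. The groups overlapped in each comparison. Its annotated span overlaps Top2b on the opposite strand, and the strand setting of the counting is not stated, so reads of both cannot be told apart where they overlap. The 250 bases before its RefSeq start are shown because retinoic acid receptors act through direct repeats of such a motif, of which the DR5 form is the textbook example at this gene. They lie at chr14:16575477-16575726 on the minus strand of GRCm38.p6, and capitals mark the DR5 match.
Rarb: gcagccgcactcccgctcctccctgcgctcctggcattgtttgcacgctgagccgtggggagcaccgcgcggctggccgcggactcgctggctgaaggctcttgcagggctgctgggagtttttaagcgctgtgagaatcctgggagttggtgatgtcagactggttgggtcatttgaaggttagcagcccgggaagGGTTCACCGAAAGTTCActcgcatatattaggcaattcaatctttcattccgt
The match, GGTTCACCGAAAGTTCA, lies at -53 to -37 from the start. DR5 was found in 32 of the 32544 windows (0.0983%), and in no other of the 12 windows of 7 of the 9 genes, the Dhrs9 window among them. Rdh10 and Aldh1a3, which were higher in DSS than in Control like Dhrs9, had no window and were not searched. AGGTCA was also found in 1 window each of Rbp2, Rara and Rarg, and TGANTCA in 1 window of Aldh1a1.

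Marker genes of several cell types moved in the same direction as Dhrs9, Aldh1a3 and Rdh10. In bulk tissue, fewer cells of a type and less RNA per cell cannot be told apart. Of all tested genes, 6.41% were called higher and 10.7% lower in DSS against Control. In GsMTx4 against DSS, 6.66% were called higher and 5.62% lower. Of 8 wound epithelium markers, 6 rose in DSS against Control and 5 fell in GsMTx4 against DSS. Their sum was 743 to 1203 FPKM in GsMTx4, 1422 to 2420 FPKM in DSS and 679 to 890 FPKM in Control libraries. Ly6a, with a mean of 912 FPKM over the 9 libraries, weighs most in this sum. It was called in neither comparison (limma, adjusted p = 0.0763 and 0.200). Of 8 macrophage and monocyte markers, 4 rose and 2 fell in these comparisons. Their sums were 388 to 472 FPKM in GsMTx4, 657 to 768 FPKM in DSS and 247 to 390 FPKM in Control. Lyz2, with a mean of 362 FPKM over the 9 libraries, weighs most in them. It rose in DSS but was not called in GsMTx4 against DSS (limma, adjusted p = 0.0519). Of 3 tested neutrophil markers among 6, 2 rose and 1 fell, with sums of 3.86 to 42.7 FPKM in GsMTx4, 57.0 to 278 FPKM in DSS and 1.89 to 2.43 FPKM in Control. Of 6 adipocyte markers, 2 were tested, Fabp4 and Cidec, and both rose in DSS against Control and fell in GsMTx4 against DSS. Adipocyte markers summed to 3.33 to 5.10 FPKM in GsMTx4, 14.9 to 15.2 FPKM in DSS and 2.90 to 5.98 FPKM in Control, so the DSS libraries did not overlap the others. Adipoq, on this list but too low to be tested, overlapped between the groups. It was at 0.293, 0.0474 and 0 FPKM in GsMTx4, 0, 0.253 and 0.996 FPKM in DSS, and 0, 0.104 and 0.402 FPKM in Control libraries. Of 6 endothelial markers, 2 rose, 1 of which (Emcn) passed the expression filter only through its DSS libraries, and 1 fell, with sums of 9.69 to 16.3 FPKM in GsMTx4, 14.7 to 28.7 FPKM in DSS and 9.35 to 13.6 FPKM in Control. Of 8 surface colonocyte markers, 2 rose and 1 fell in DSS against Control, while 2 rose and 4 fell in GsMTx4 against DSS. Their sum was 1466 to 1760 FPKM in GsMTx4, 2383 to 3187 FPKM in DSS and 1671 to 2312 FPKM in Control. None of these 6 lists had a marker at 0 in all libraries, and the part of these cell types in the retinoid gene values was not tested.

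The genes whose pattern over the 9 libraries was closest to that of Dhrs9 were Ereg, Retnlb, Ighv1-59, Emp1, Prss27 and Tmem181c-ps. Likeness is the root-mean-square difference between centred log2(FPKM + 1) values, computed for 12613 tested genes after predicted genes were left out, and it was 0.464 for Ereg and 0.555 for Tmem181c-ps. Ereg, a ligand of the EGF receptor, was at 1.88 ± 1.01 FPKM in GsMTx4, 17.8 ± 2.58 FPKM in DSS and 1.48 ± 0.236 FPKM in Control. Retnlb, a goblet cell gene of the colon, was at 15.2 ± 5.63 FPKM in GsMTx4, 162 ± 112 FPKM in DSS and 13.7 ± 1.69 FPKM in Control. Emp1, an epithelial membrane protein gene counted among the wound epithelium markers, was at 5.44 ± 1.10 FPKM in GsMTx4, 126 ± 49.1 FPKM in DSS and 9.82 ± 1.89 FPKM in Control. Aldh1a3 was 14th by this measure, at 0.631, and Rdh10 was 413th, at 1.21. Dhrs9 was chosen by its fold changes in these same libraries, so genes with similar changes come close to it by construction. The ranks are a description only. With a pseudocount of 0.1 or 0.01, and without DSS 3 or GsMTx4 3, 3 of these 6 genes were again among the closest 6.

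**Figure D4:**
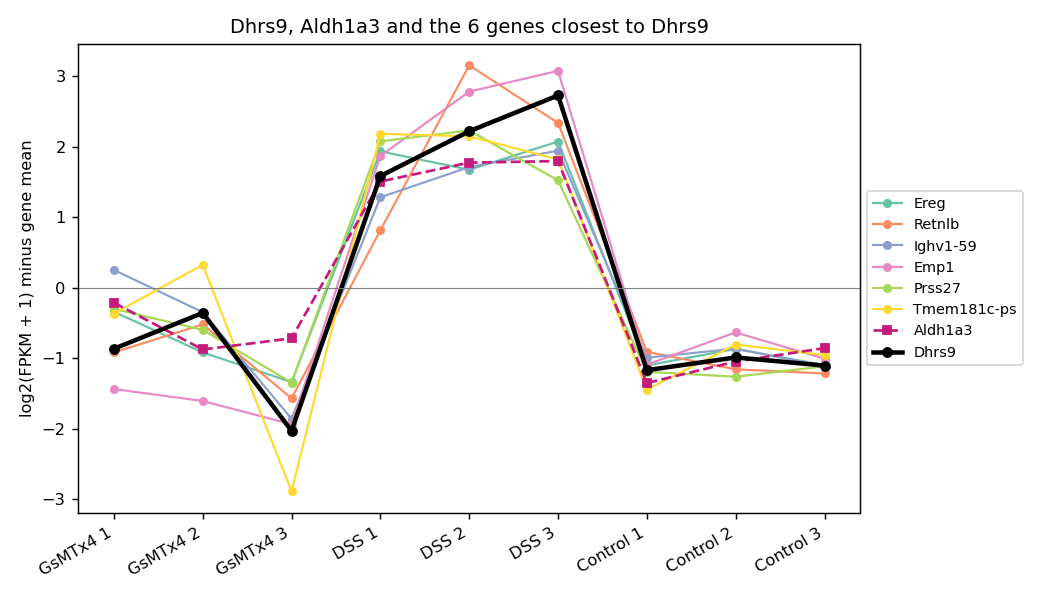
Centred log2(FPKM + 1) values (vertical axis) of Dhrs9, Aldh1a3 and the 6 genes closest to Dhrs9 in the 9 libraries. Lines join the points of a gene only to guide the eye. All 8 genes lie above their own mean in the 3 DSS libraries and below it in the 3 Control libraries.

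Beyond the 9 genes, a list of 58 genes of retinoid transport, metabolism and response was followed, of which 39 passed the expression filter. This list, too, was chosen with earlier results of these data known. In DSS against Control, 8 of the 39 were called higher, 8 lower and 23 not called, beside 6.41% and 10.7% of all tested genes called in these directions. One of the 8 higher genes, Stra6, passed the expression filter only through its DSS libraries, which leaves 7. The list had a median log2 fold change of -0.05 beside -0.17 over all tested genes. Of these 39 in GsMTx4 against DSS, 7 were higher, 5 lower and 27 not called, beside 6.66% and 5.62% of all tested genes, with a median of -0.01 beside 0.07. None was called in GsMTx4 against Control by limma, where 5 had an unadjusted p under 0.05. Cd38 was called higher there without GsMTx4 3 (adjusted p = 0.00925). These counts moved with the processing: in DSS against Control the split was 11 higher and 5 lower under median-of-ratios scaling and 12 and 8 under quantile normalization. Over all tested genes, the higher share of calls was 37.4%, with 60.7% under median-of-ratios scaling, 27.5% under rescaling to a common sum and 50.1% under quantile normalization. For GsMTx4 against DSS it was 54.2%, with 43.3% under median-of-ratios scaling.

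Among carriers and uptake genes, 8 of 10 were tested. Ttr, which carries retinol-binding protein in plasma, was at 9.70, 15.8 and 24.9 FPKM in GsMTx4, 3.04, 5.19 and 2.08 FPKM in DSS and 24.5, 19.1 and 20.9 FPKM in Control libraries. It fell by 2.40 in DSS (SE 0.33, adjusted p = 0.00281, limma) and was higher in GsMTx4 than in DSS by 1.98 (SE 0.33, adjusted p = 0.00851). Ttr is also an abundant liver transcript. Of the 8 hepatocyte markers in the table, 7 were tested, of which Fga, Fgb and Ahsg passed the expression filter only through their GsMTx4 libraries. Of the other 4, Alb, Apoa2 and Serpina1b were called higher in GsMTx4 both against DSS and against Control. Of all tested genes, 6.66% and 0.188% were called higher in these comparisons. Alb was also called lower in DSS than in Control, beside 10.7% of all tested genes. Tat, the tyrosine aminotransferase gene, was called the other way, higher in DSS than in Control and lower in GsMTx4 than in DSS. Tat was at 11.0 to 30.7 FPKM in GsMTx4, 49.3 to 74.9 FPKM in DSS and 6.50 to 8.15 FPKM in Control. The other 7 markers summed to 29.9 to 36.6 FPKM in GsMTx4, 1.47 to 2.48 FPKM in DSS and 1.66 to 2.70 FPKM in Control, and none of the 8 was at 0 in all libraries. Alb, the albumin gene, was at 13.2, 14.4 and 14.6 FPKM in GsMTx4, 0.0719, 0.479 and 0.111 FPKM in DSS, and 1.22, 0.825 and 0.753 FPKM in Control libraries. The part of liver transcripts in the Ttr values was not tested.

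Fabp5, which hands retinoic acid to PPAR-delta, was at 4.19 ± 1.69 FPKM in GsMTx4, 10.1 ± 2.75 FPKM in DSS and 2.61 ± 0.514 FPKM in Control. It rose in DSS by 1.60 (SE 0.25, adjusted p = 0.00451) and fell by 1.11 in GsMTx4 against DSS (SE 0.25, adjusted p = 0.0230), which did not hold if DSS 3, GsMTx4 1 or GsMTx4 2 was left out (adjusted p = 0.0526 to 0.0884). Stra6, a membrane receptor for retinol-binding protein, was at 0.955, 0.681 and 0.895 FPKM in GsMTx4, 1.78, 1.26 and 1.64 FPKM in DSS and 0.474, 0.158 and 0.279 FPKM in Control libraries. It passed the expression filter only through its DSS libraries, so its values are given with no test. Rbp7, a cellular retinol-binding protein gene, fell by 1.10 in DSS (SE 0.32, adjusted p = 0.0455), which did not hold when any of 6 libraries was left out, each Control library, DSS 2, DSS 3 and GsMTx4 3 (adjusted p = 0.0524 to 0.141).

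Of 5 carotenoid and retinyl ester genes, 4 were tested. Bco2, the mitochondrial enzyme that cleaves carotenoids, was at 7.12 ± 2.23 FPKM in GsMTx4, 2.12 ± 0.472 FPKM in DSS and 5.33 ± 0.348 FPKM in Control. It fell by 1.03 in DSS (SE 0.20, adjusted p = 0.0101) and was higher in GsMTx4 than in DSS by 1.36 (SE 0.20, adjusted p = 0.00521). Isx, an intestinal repressor of carotenoid uptake and cleavage, was at 8.08, 9.60 and 1.06 FPKM in GsMTx4, 5.03, 10.1 and 21.8 FPKM in DSS, and 0.507, 1.27 and 1.07 FPKM in Control libraries. It rose in DSS by 2.58 (SE 0.64, adjusted p = 0.0258), which did not hold when any Control library, DSS 2 or DSS 3 was left out (adjusted p = 0.0642 to 0.0810). Its GsMTx4 libraries were split, with GsMTx4 3 at the Control level.

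Of 19 genes of retinol and retinal oxidoreductases, 11 were tested, and 2 rose and 3 fell in DSS against Control. In GsMTx4 against DSS, 4 were called higher and 1 lower. Of all tested genes, 6.41% were called higher and 10.7% lower in the first comparison, and 6.66% and 5.62% in the second. Adh1, an alcohol dehydrogenase that oxidises retinol among other alcohols, was at 396, 423 and 616 FPKM in GsMTx4, 116, 125 and 46.0 FPKM in DSS, and 422, 371 and 364 FPKM in Control libraries. It fell by 2.12 in DSS (SE 0.36, adjusted p = 0.00594) and was higher in GsMTx4 than in DSS by 2.41 (SE 0.36, adjusted p = 0.00541). Its sign was opposite to that of Dhrs9 and Rdh10 in both comparisons. Rdh16, a microsomal retinol dehydrogenase gene, was at 26.3 ± 9.82 FPKM in GsMTx4, 48.5 ± 6.13 FPKM in DSS and 18.2 ± 3.0 FPKM in Control, and it rose in DSS by 1.37 (SE 0.24, adjusted p = 0.00762). It fell by 0.91 in GsMTx4 against DSS (SE 0.24, adjusted p = 0.0421), which did not hold without each library but GsMTx4 1 (adjusted p = 0.0594 to 0.128). Rdh9 rose in DSS by 1.15 (SE 0.28, adjusted p = 0.0241), which did not hold without Control 1, Control 3, DSS 1 or DSS 2 (adjusted p = 0.0658 to 0.0835). Rdh16 and Rdh9 lie in a cluster of near-identical copies on chromosome 10, so the split of reads between them is uncertain.

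Rdh11, Dhrs4 and Rdh13 encode enzymes known to reduce retinal back to retinol. Rdh11 was at 8.95 ± 1.65 FPKM in GsMTx4, 3.80 ± 0.439 FPKM in DSS and 6.06 ± 1.09 FPKM in Control. It was higher in GsMTx4 than in DSS by 1.04 (SE 0.17, adjusted p = 0.00753) and did not pass in DSS against Control (-0.55, SE 0.17, adjusted p = 0.0551; 0.0395 without GsMTx4 3). Dhrs4 fell by 0.67 in DSS against Control (adjusted p = 0.0280) and higher in GsMTx4 than in DSS by 0.72 (adjusted p = 0.0274). Rdh13 changed by -0.65 in DSS against Control (adjusted p = 0.0309) and by 0.63 in GsMTx4 against DSS (adjusted p = 0.0416). Without single libraries these 4 calls were lost, for Dhrs4 without 4 libraries in each comparison and for Rdh13 without 5 in DSS against Control and 8 in GsMTx4 against DSS (adjusted p up to 0.135). Dhrs3, on the same list, had the opposite sign in both comparisons and was not called. Its means were 6.96 ± 2.06 FPKM in GsMTx4, 9.64 ± 0.382 FPKM in DSS and 6.90 ± 0.739 FPKM in Control. It changed by 0.43 in DSS against Control (limma, adjusted p = 0.146) and by -0.45 in GsMTx4 against DSS (adjusted p = 0.152). Aldh1a7, the close copy of Aldh1a1, fell by 1.44 in DSS (SE 0.26, adjusted p = 0.00780) and was higher in GsMTx4 than in DSS by 1.45 (SE 0.26, adjusted p = 0.0108).

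**Figure D5:**
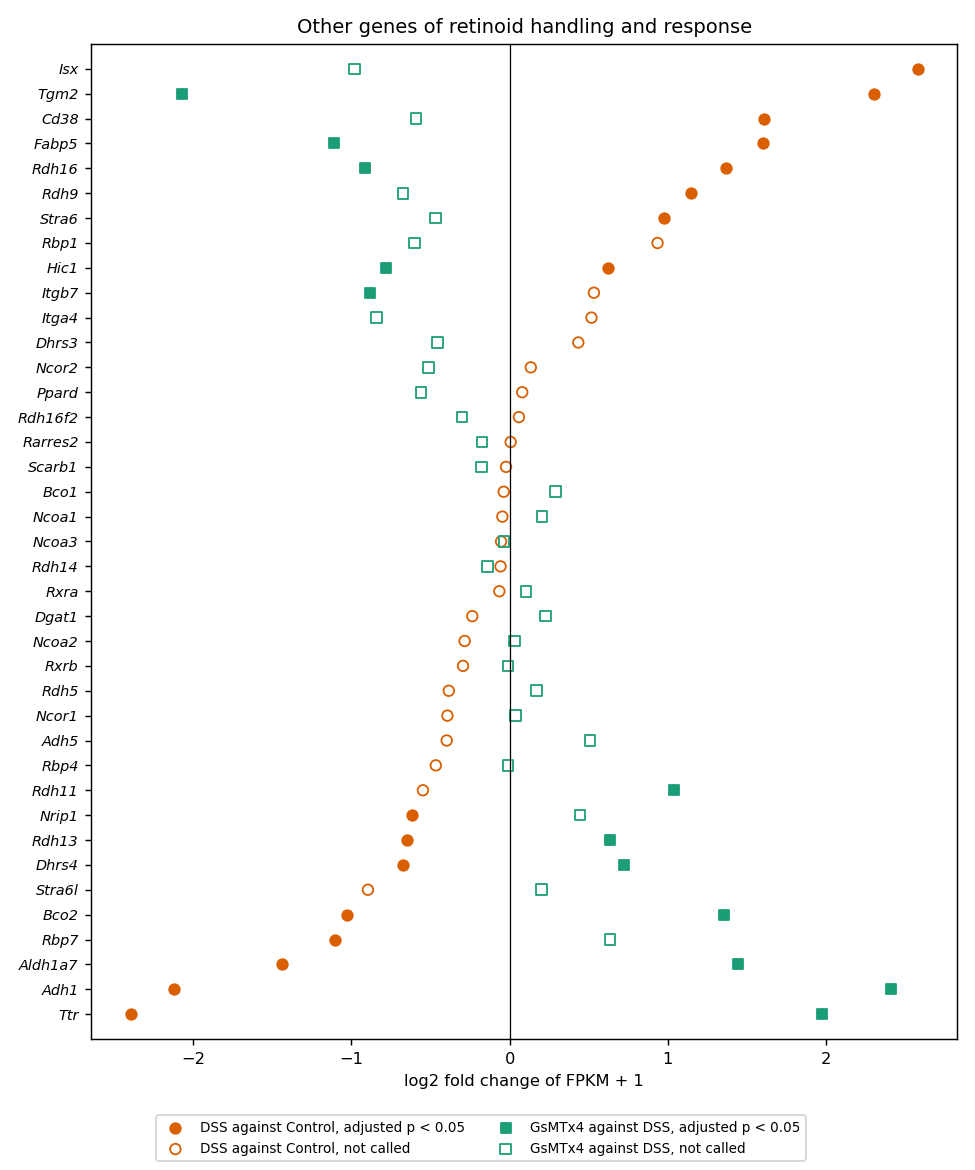
Log2 fold change of FPKM + 1 (horizontal axis) of the 39 tested genes of the wider retinoid list in DSS against Control (circles) and GsMTx4 against DSS (squares), with filled symbols at an adjusted p under 0.05. Stra6 is drawn filled although it passed the expression filter only through its DSS libraries. Both comparisons share the DSS libraries, which by itself tends to place the symbols of a gene on opposite sides of 0. Isx is highest at 2.58 and Ttr lowest at -2.40 in DSS against Control.

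The 3 Cyp26 genes, which break down retinoic acid, were all too low to be tested, and Cyp26b1 was the highest of them at 0.560 ± 0.0520 FPKM in GsMTx4, 0.626 ± 0.391 FPKM in DSS and 0.459 ± 0.289 FPKM in Control. Of 9 tested partners and coregulators of the receptors, Nrip1, a corepressor, was the 1 that was called. This is 11.1% called lower in DSS against Control, near the 10.7% of all tested genes. Nrip1 fell by 0.62 in that comparison (SE 0.17, adjusted p = 0.0370), which did not hold without any Control library, DSS 2 or DSS 3 (adjusted p = 0.0738 to 0.115). Rxra, the abundant receptor partner, was at 14.9 ± 0.946 FPKM in GsMTx4, 13.9 ± 2.33 FPKM in DSS and 14.4 ± 1.04 FPKM in Control.

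Of 9 genes known to respond to retinoic acid, 6 were tested, and 3 rose in DSS against Control (6.41% of all tested genes were called higher) and 3 fell in GsMTx4 against DSS (5.62% called lower). Tgm2, a transglutaminase gene, was at 26.5, 19.4 and 22.0 FPKM in GsMTx4, 68.9, 119 and 113 FPKM in DSS, and 16.0, 20.2 and 21.1 FPKM in Control libraries. It rose in DSS by 2.31 (SE 0.23, adjusted p = 0.000765) and fell by 2.07 in GsMTx4 against DSS (SE 0.23, adjusted p = 0.00189), and both calls were kept under every alternative run. Cd38, an ectoenzyme gene, was at 159, 132 and 53.6 FPKM in GsMTx4, 163, 167 and 143 FPKM in DSS, and 55.4, 50.3 and 47.4 FPKM in Control libraries. It rose in DSS by 1.61 (SE 0.34, adjusted p = 0.0145), which did not hold without Control 2 or Control 3 (adjusted p = 0.0540 and 0.0550), and GsMTx4 3 was again at the Control level.

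Hic1, a transcriptional repressor gene, rose in DSS by 0.62 (SE 0.16, adjusted p = 0.0280; lost without any Control library or DSS 3, up to 0.0902). It fell by 0.78 in GsMTx4 against DSS (SE 0.16, adjusted p = 0.0160; 0.0597 without GsMTx4 2). Itgb7, the beta subunit of a gut-homing integrin, fell by 0.88 in GsMTx4 against DSS (SE 0.20, adjusted p = 0.0228; lost without DSS 1, DSS 3 or GsMTx4 2, up to 0.0848). In DSS against Control it did not pass (0.53, SE 0.20, adjusted p = 0.0915), but passed without DSS 2 (0.0250).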

How the data were processed

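The members and gene lists were chosen with earlier results of these data known. Total RNA of mouse colon was sequenced in 9 libraries, grouped by sample title. The authors deposited 1 table of FPKM values for 35315 genes. The submitters' processing notes list cutadapt, FastQC and the build GRCm38. Which aligner and which FPKM program were used is not given in the sources used here. Symbols and positions were taken from GENCODE M21, which named 35196 genes. FPKM values were not recoverable as whole reads, so depth is unknown.

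Values were transformed to log2(FPKM + 1), a scale that understates the change of low genes. limma 3.58.1 in R 4.3.3 fitted 1 mean per group over all 9 libraries (6 residual degrees of freedom) with a trended spread. Tests were two-sided, with Benjamini-Hochberg adjustment over 14360 genes. The fit was also run on simulated normal values with the same spread of a gene in every group. That run cannot tell how the fit behaves where groups differ in spread. Each of the 9 genes was named whatever its values, together with the passing genes of each retinoid sub-list (in each comparison, at most the 4 with the smallest p), the gene with the highest mean where none passed, at most 3 passing Dhrs genes, and the 6 genes most like Dhrs9. Rxra, Dhrs3 and the cell markers shown singly, the order of levels without GsMTx4 3 and the hepatocyte sum without Tat were chosen after their values were seen. Python 3.11.15 with matplotlib 3.10.9 made the figures. Alternatives were pseudocounts of 0.1 and 0.01, no filter, a mean of at least 5 FPKM, rescaling to a common sum (TPM), median-of-ratios scaling, quantile normalization, the 2 compared groups alone, no trend, the replicate number as a block, and each library left out.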

Additional observations from a re-analysis of the deposited data

How the results depend on the processing

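The calls of Aldh1a3, Tgm2, Adh1, Ttr, Bco2 and Aldh1a7 in DSS against Control and in GsMTx4 against DSS were kept under every alternative run for them. On the retinoid list, 8 of 16 calls in DSS against Control were kept under every alternative run for them, Stra6 among them. Stra6 was run under 15 alternatives only, not at a mean of at least 5 FPKM nor without any 1 DSS library. It passed the expression filter only through its DSS libraries, so its being kept is no support for its call. In GsMTx4 against DSS, 6 of 12 calls on the list were kept. For named genes, 1363 values under an alternative kept their side of the threshold (the untested Dhrs9 moved by less than its spread). These include values of genes that were not called and stayed so. A call was lost in 125 values and gained in 15, and no call changed direction. The cause was not tested. The counts over all tested genes moved more. In DSS against Control, 921 genes were higher, with 579 at a mean of at least 5 FPKM, 1418 under median-of-ratios scaling and 383 to 1093 without 1 library, and 1541 were lower, with 992, 919 and 576 to 1989 under the same changes and 995 with the replicate block. On the retinoid list, 8 were higher (4 to 9 without 1 library) and 8 lower, with 4 without a filter, at a mean of at least 5 FPKM and with the block, 5 under median-of-ratios scaling and 4 to 9 without 1 library. In GsMTx4 against DSS, 956 were higher, with 590 without a filter, 327 in a fit of the 2 groups alone, 553 with the block and 352 to 1186 without 1 library. There, 807 were lower, with 483, 260, 525 and 306 to 767 under the same changes and 495 at a mean of at least 5 FPKM. On the list, 7 were higher, with 4 at that mean and 5 to 7 without 1 library, and 5 were lower, with 2 without a filter, 1 in the 2 groups alone and 1 to 5 without 1 library. In GsMTx4 against Control, 27 were higher, with 3 at a pseudocount of 0.01 or a mean of at least 5 FPKM and 4 to 47 without 1 library. There, 7 were lower, with 2 and 1 at pseudocounts of 0.1 and 0.01, 12 without a filter, 2 at a mean of at least 5 FPKM, 3 under median-of-ratios scaling or quantile normalization and 1 to 11 without 1 library. On the list, 0 to 1 were higher without 1 library. Of the 6 genes most like Dhrs9, 3 stayed with a pseudocount of 0.1 or 0.01, and 3 to 6 without 1 library. Scaling moved the median gene of DSS against Control by -0.106 (common sum), 0.158 (median of ratios) and 0.111 (quantile). Same-numbered libraries correlated at -0.233 to 0.1 in their deviations from group means. These values gave no sign of pairing by number, but with 3 libraries a group they cannot exclude it. With the replicate block the list had 7 higher and 4 lower in DSS against Control and 5 and 4 in GsMTx4 against DSS. A fit without 1 library leaves 2 in that group, and depth limits for low genes such as Aldh1a2 and Rarb are unknown.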

Other observations

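Of 8 other Dhrs genes listed, 6 were in the table and 5 were tested, and none of these was called higher in DSS against Control. Of all tested genes, 6.41% were called higher and 10.7% lower in that comparison. Dhrs7 was at 10.3 ± 0.530 FPKM in GsMTx4, 7.01 ± 0.240 FPKM in DSS and 10.4 ± 1.03 FPKM in Control. It changed by -0.50 (SE 0.12, adjusted p = 0.0201, limma) in DSS against Control and by 0.50 (SE 0.12, adjusted p = 0.0268) in GsMTx4 against DSS. Dhrs11 was at 38.4 ± 1.21 FPKM in GsMTx4, 37.8 ± 5.11 FPKM in DSS and 54.5 ± 1.86 FPKM in Control, with -0.52 (SE 0.13, adjusted p = 0.0273) in DSS against Control and -0.49 (SE 0.13, adjusted p = 0.262) in GsMTx4 against Control. The Dhrs7 and Dhrs11 calls in DSS against Control were lost without 4 and 5 of the 9 libraries (adjusted p up to 0.104), with the replicate block (0.0575 and 0.0647) and under median-of-ratios scaling (0.117 and 0.183). The Dhrs7 call in GsMTx4 against DSS was lost without 5 libraries (up to 0.0843). Dhrs1, Dhrs7b and Dhrs13 were not called, and Dhrs7c was listed at 0 in every library.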
